A study of Mus musculus with 9 samples.

Results

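The complement components and receptors described here are 9 genes, chosen by symbol. They are the C1q subunits C1qa, C1qb and C1qc, the components C4b, C2 and C3, the protease gene Cfb, and the anaphylatoxin receptors C3ar1 and C5ar1. All 9 were found among the 52550 genes of the count table, and 8 of them passed the filter on low counts that left 18699 genes to test. Spinal cord RNA came from 9 adult female C57BL/6N mice, 3 in each group, taken on day 7. Sham mice had a laminectomy only, the SCI group had a contusion at T10 followed by intraperitoneal DMSO, and the SCI+FIPI group had the same contusion followed by FIPI, an inhibitor of phospholipase D, given daily by the same route. The sham mice are not described as receiving DMSO, so that the SCI group differs from them in both contusion and vehicle. Each sample was a segment of whole cord, taken around the epicenter in the injured mice, and so held a mixture of cell types.

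Complement is a cascade of plasma and tissue proteins that tags debris, microbes and, in the nervous system, synapses for removal. In the classical pathway C1q binds a target and its partner proteases cleave C4 and C2, which together form the enzyme that cleaves C3. Factor B, the product of Cfb, takes the place of C2 in the alternative pathway, and fragments released from C3 and C5 act on their receptors C3aR and C5aR1 on myeloid cells. Microglia and macrophages are the main source of C1q in the central nervous system, whereas astrocytes and other cells also make C3 and C4.

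Total counts per mouse were between 20806000 and 24582377. Levels are given in CPM, the count of a mouse scaled to a common total with TMM factors of edgeR. Comparisons between genes are in FPKM, the count divided by exonic length and by the plain total of the mouse. A gene was called where its log2 fold change was 0.5 or more in size and its adjusted p lay under 0.05. The test was the quasi-likelihood test of edgeR, adjusted after Benjamini and Hochberg over the whole set of genes tested. All adjusted p-values below are from that test unless another is named. The tissue label was matched by its markers, with 8 neuron markers at a summed 8370 to 9099 CPM and 6 oligodendrocyte markers at 32397 to 33982 CPM in the sham mice. Markers of hepatocytes, which make most plasma complement, reached at most 5.27 CPM in sum over 6 genes in any mouse.

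The members lie on 4 chromosomes of GRCm38, all on the reverse strand. The C1q genes are neighbors on chromosome 4, with C1qb (ENSMUSG00000036905) from 136880129 to 136886187, C1qc (ENSMUSG00000036896) from 136889804 to 136893065 and C1qa (ENSMUSG00000036887) from 136895917 to 136898803. Chromosome 17 holds C4b (ENSMUSG00000073418) from 34728380 to 34743882, Cfb (ENSMUSG00000090231) from 34856374 to 34862518, C2 (ENSMUSG00000024371) from 34862604 to 34898265 and, farther along, C3 (ENSMUSG00000024164) from 57203970 to 57228136. C3ar1 (ENSMUSG00000040552) is on chromosome 6 from 122847138 to 122856161, and C5ar1 (ENSMUSG00000049130) is on chromosome 7 from 16246743 to 16259540.

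RefSeq promoter windows on GRCm38.p6 were matched for 5 of the 9 members. The 250 bases before the RefSeq start are shown for a C1q subunit, for C3 and for a receptor, since these roles behaved differently below. Capitals mark letters that match one of 2 motifs searched on both strands, and C3ar1 held neither. The windows are chr4:136886201-136886450 for C1qb, chr17:57228137-57228386 for C3 and chr6:122856158-122856407 for C3ar1, each printed on the reverse strand of the genome, 5′ to 3′ for the gene.
C1qb: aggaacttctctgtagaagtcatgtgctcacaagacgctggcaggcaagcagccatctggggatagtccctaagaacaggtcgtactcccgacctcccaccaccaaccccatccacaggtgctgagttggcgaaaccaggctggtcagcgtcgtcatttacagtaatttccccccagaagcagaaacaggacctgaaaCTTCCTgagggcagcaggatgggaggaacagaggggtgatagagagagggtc
C3: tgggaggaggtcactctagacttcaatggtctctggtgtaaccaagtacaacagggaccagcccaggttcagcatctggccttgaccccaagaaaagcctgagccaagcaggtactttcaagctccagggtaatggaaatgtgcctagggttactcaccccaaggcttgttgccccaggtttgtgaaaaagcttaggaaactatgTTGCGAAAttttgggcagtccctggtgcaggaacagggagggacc
C3ar1: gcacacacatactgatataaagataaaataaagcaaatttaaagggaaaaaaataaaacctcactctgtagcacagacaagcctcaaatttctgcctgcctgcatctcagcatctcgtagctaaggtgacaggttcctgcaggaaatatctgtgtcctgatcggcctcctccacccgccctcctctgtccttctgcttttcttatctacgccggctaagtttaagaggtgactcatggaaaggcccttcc
The core letters bound by PU.1, a transcription factor of myeloid cells (AGGAAG), occurred in 3 of the 5 windows, those of C1qb, C1qc and C5ar1, and in 29.6% of all 32536 windows. A C/EBP pattern (TTGCNNAA) was found in C3 alone among the 5, against 9.57% of all windows. In C3 these letters ended 38 bases before the start. The RefSeq start of C5ar1 lies inside the gene span given above, and its matches fall within that span. All matches describe letters only.

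After injury 7 of the 8 members tested were called higher, and none lower. The same call was made for 24.4% of all genes tested in that direction. The 3 C1q subunits rose 8.37-fold to 10.1-fold and the 2 receptors 18.3-fold and 23.1-fold, whereas C3 and C4b rose 1.91-fold and 2.07-fold. The median log2 fold change of the 8 members was 3.12, and that of all genes tested was -0.0031. In every one of the 8, the lowest SCI mouse was above the highest sham mouse, which held for 35.6% of all genes.

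**Figure D1:**
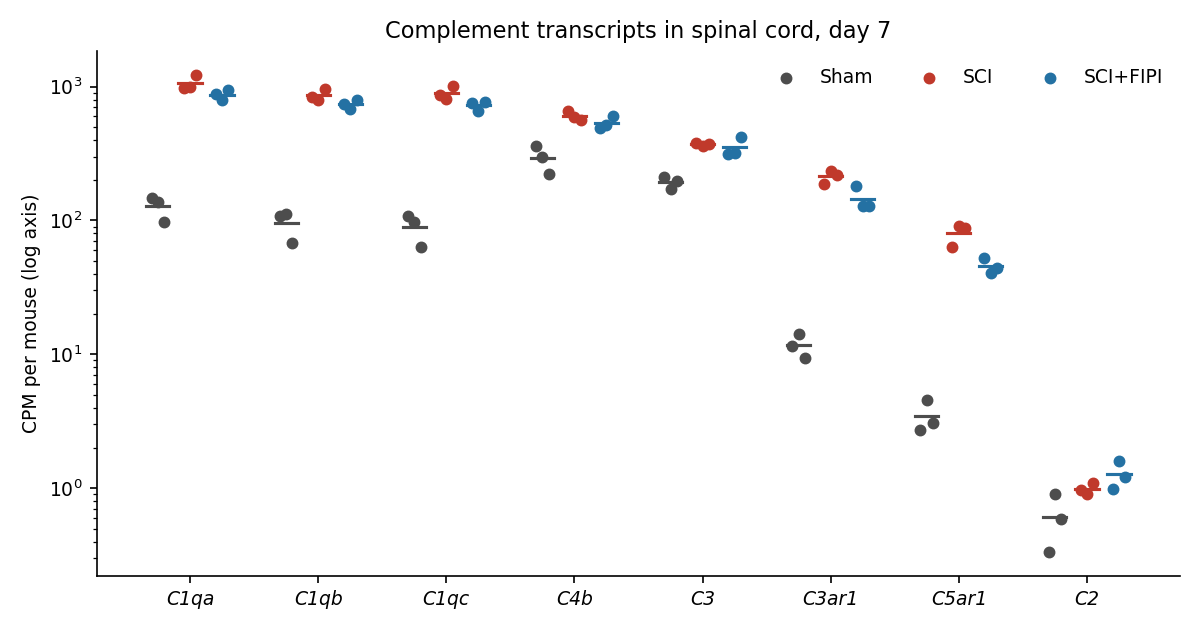
CPM of the 8 members tested in each mouse (points, log axis) with the group mean (bars) for Sham, SCI and SCI+FIPI, n = 3 mice each. The C1q subunits lie at 63.2 to 147 CPM in the sham mice and at 796 to 1228 CPM in the SCI mice while C3 and C4b rise by a smaller factor.

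C1qa encodes the A chain of C1q. It had 147, 137 and 97.6 CPM in the 3 sham mice, 971, 991 and 1228 CPM in the SCI mice and 873, 790 and 938 CPM in the SCI+FIPI mice. Both injured groups were far above the sham mice, and the SCI+FIPI mice were all below the lowest SCI mouse. The log2 fold change of SCI against Sham was 3.06 (standard error 0.164, adjusted p = 1.21e-07).

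C1qb, the B chain, had 109, 112 and 67.9 CPM in the sham mice, 833, 796 and 960 CPM in the SCI mice and 743, 674 and 797 CPM in the SCI+FIPI mice. One SCI+FIPI mouse here reached the lowest SCI mouse, so that these groups overlapped. Its log2 fold change after injury was 3.17 (standard error 0.193, adjusted p = 1.05e-06). C1qc, the C chain, had 108, 96.8 and 63.2 CPM in the sham mice, 866, 813 and 1017 CPM in the SCI mice and 754, 653 and 764 CPM in the SCI+FIPI mice. Sham mouse 3 was the lowest of its group for all 3 chains. For C1qc the log2 fold change after injury was 3.33 (standard error 0.202, adjusted p = 1.24e-06).

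C4b encodes complement C4, which the partner proteases of C1q cleave in the classical pathway. It had 357, 297 and 223 CPM in the sham mice, 657, 590 and 564 CPM in the SCI mice and 493, 512 and 598 CPM in the SCI+FIPI mice. All injured mice were above all sham mice. The log2 fold change after injury was 1.05 (standard error 0.159, adjusted p = 0.000311). Of the 50-base stretches of its transcript, 35.2% also occur in its near copy C4a, which had 48 to 85 counts per mouse against at least 5329 for C4b.

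C3, on which all complement pathways converge, had 212, 173 and 197 CPM in the sham mice, 379, 362 and 372 CPM in the SCI mice and 314, 322 and 419 CPM in the SCI+FIPI mice. The SCI mice lay close together, and SCI+FIPI mouse 3 was above every one of them. Its log2 fold change after injury was 0.94 (standard error 0.106, adjusted p = 6.28e-06). The intervals of C3 and C4b, 0.71 to 1.17 and 0.69 to 1.41 at 95% confidence, both ended below those of all C1q subunits, of which the lowest began at 2.69.

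C3ar1 encodes the receptor of the fragment C3a. It had 11.4, 14.2 and 9.44 CPM in the sham mice, 186, 236 and 218 CPM in the SCI mice and 179, 129 and 128 CPM in the SCI+FIPI mice. All SCI+FIPI mice lay below all SCI mice, with mouse 1 near the SCI range and the other two well under it. The log2 fold change after injury was 4.19 (standard error 0.206, adjusted p = 4.37e-07).

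C5ar1 encodes the receptor of C5a, an attractant of neutrophils and macrophages. It had 2.73, 4.58 and 3.05 CPM in the sham mice, 63.4, 90.2 and 87.3 CPM in the SCI mice and 52.3, 40.2 and 44.2 CPM in the SCI+FIPI mice. The 3 groups did not overlap. The log2 fold change after injury was 4.53 (standard error 0.223, adjusted p = 2.02e-07), the highest of the members tested.

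C2 and Cfb had few counts. C2 had 7, 21 and 14 counts in the sham mice, 23, 22 and 26 counts in the SCI mice and 22, 38 and 29 counts in the SCI+FIPI mice. Its log2 fold change after injury was 0.68 (standard error 0.365, adjusted p = 0.113) and was not called, although without sham mouse 2 it was (1.08, adjusted p = 0.0307). Cfb had 0, 2 and 0 counts in the sham mice, 3, 5 and 4 counts in the SCI mice and 2, 3 and 6 counts in the SCI+FIPI mice, and was not tested. It summed to 2, 12 and 11 counts in the 3 groups, and a sham count of 0 allows up to 3 counts by counting error alone.

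Both genes overlap Gm20547, an annotated model on the same strand that joins exons of C2 to exons of Cfb. It covers 79.5% of the exonic bases of Cfb and 42.8% of those of C2, and it had 0 counts in all 9 mice. Zbtb12, on the opposite strand, covers a further 4.16% of C2. How reads shared by overlapping genes were counted is not given in the sources used here, and the part of this overlap in the low counts was not tested. The levels of C2 and Cfb are therefore uncertain.

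**Figure D2:**
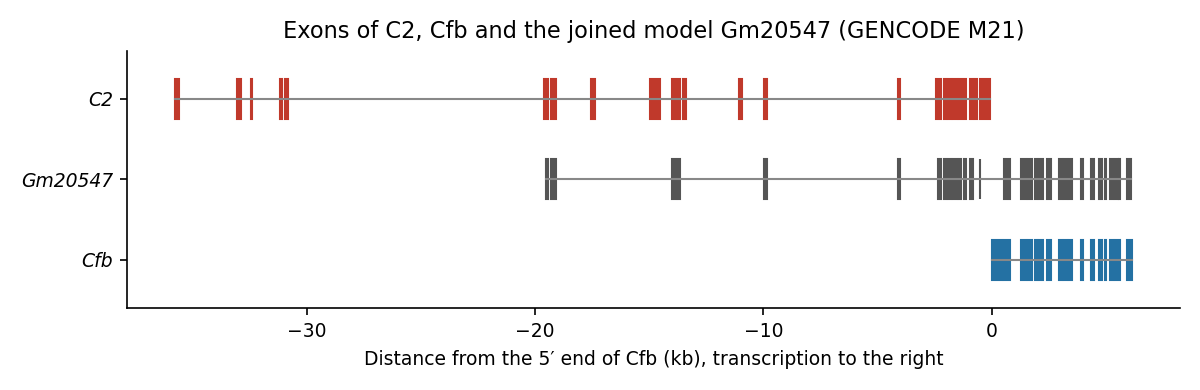
Exons of any annotated transcript of C2, Gm20547 and Cfb (boxes) and the span of each gene (lines), by distance in kb from the 5′ end of Cfb. Exons of Gm20547 coincide with those of both neighbors, covering 79.5% of Cfb and 42.8% of C2.

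The FPKM scale orders genes by count per base of all annotated exons. On it, the SCI group ran from C1qa at 1009 ± 136 through C1qb at 783 ± 79.7 to C1qc at 459 ± 55.0 (SD, n = 3 mice). C4b came next at 105 ± 8.43 (SD, n = 3 mice). C3 followed at 71.2 ± 1.90, C3ar1 at 48.9 ± 5.65 and C5ar1 at 30.8 ± 5.58 (SD, n = 3 mice). C2 at 0.252 and Cfb at 0.0584 were lowest. No neighbors in this order overlapped between mice, in the SCI group or, with the same order, in the SCI+FIPI group. The order depends on the annotated lengths, which are 1931 bases for C1qc and 1088 for C1qb. In CPM, which is not divided by length, C1qc and C1qb had means of 899 and 863 in the SCI group. These means were 724 and 738 CPM in the SCI+FIPI group and 89.2 and 96.1 CPM in the sham mice. In the sham mice the order was C1qa at 123 ± 26.1, C1qb at 89.1 ± 23.5, C4b at 51.8 ± 12.1, C1qc at 46.6 ± 12.3 and C3 at 37.9 ± 3.43 (SD, n = 3 mice), and each of these overlapped the next. The receptors C3ar1 at 2.74 ± 0.592 and C5ar1 at 1.36 ± 0.406 FPKM stood apart below them (SD, n = 3 mice).

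With FIPI, C5ar1 was the only member of the 8 tested that was called, and it was lower. Its level in the SCI+FIPI group was 0.567 times that of the SCI group, at 45.5 ± 6.13 CPM (SD, n = 3 mice) against 80.3 ± 14.7 CPM (SD, n = 3 mice). On the log2 scale this was a change of -0.82 (standard error 0.171, 95% interval -1.21 to -0.43, adjusted p = 0.0239). Of all genes tested, 0.695% were called lower in this comparison and 3.06% in either direction. The call was lost without SCI mouse 2 (-0.73, adjusted p = 0.0725), without SCI mouse 3 (-0.76, adjusted p = 0.107), without SCI+FIPI mouse 2 (-0.74, adjusted p = 0.105) and without SCI+FIPI mouse 3 (-0.80, adjusted p = 0.0781).

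C3ar1 had 213 ± 25.2 CPM without and 145 ± 29.3 CPM with FIPI (SD, n = 3 mice per group). Its log2 fold change of -0.55 (standard error 0.171, 95% interval -0.95 to -0.15) did not pass the adjusted test (adjusted p = 0.0889). It was called without SCI+FIPI mouse 1 (-0.73, adjusted p = 0.0167), and DESeq2 also called it (-0.55, adjusted p = 0.00217 from DESeq2).

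None of the C1q subunits passed the test with FIPI. The log2 fold changes were -0.29 for C1qa (95% interval -0.64 to 0.05, adjusted p = 0.268), -0.23 for C1qb (-0.63 to 0.18, adjusted p = 0.484) and -0.31 for C1qc (-0.74 to 0.11, adjusted p = 0.342). The intervals leave room for decreases beyond the limit of 0.5. For C4b the value was -0.18 (95% interval -0.53 to 0.18, adjusted p = 0.542), and for C2 it was 0.36 (-0.35 to 1.07, adjusted p = 0.548). For C3 the value was -0.08 (95% interval -0.31 to 0.15, adjusted p = 0.699). It rested on the high SCI+FIPI mouse 3, without which it was -0.22 (adjusted p = 0.127), and it lay near 0 without SCI+FIPI mouse 1 (-0.0047) or mouse 2 (-0.0186). Every SCI+FIPI mouse was below every SCI mouse for 4 of the 8 members, C1qa, C1qc, C3ar1 and C5ar1, and for 14.5% of all genes.

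**Figure D3:**
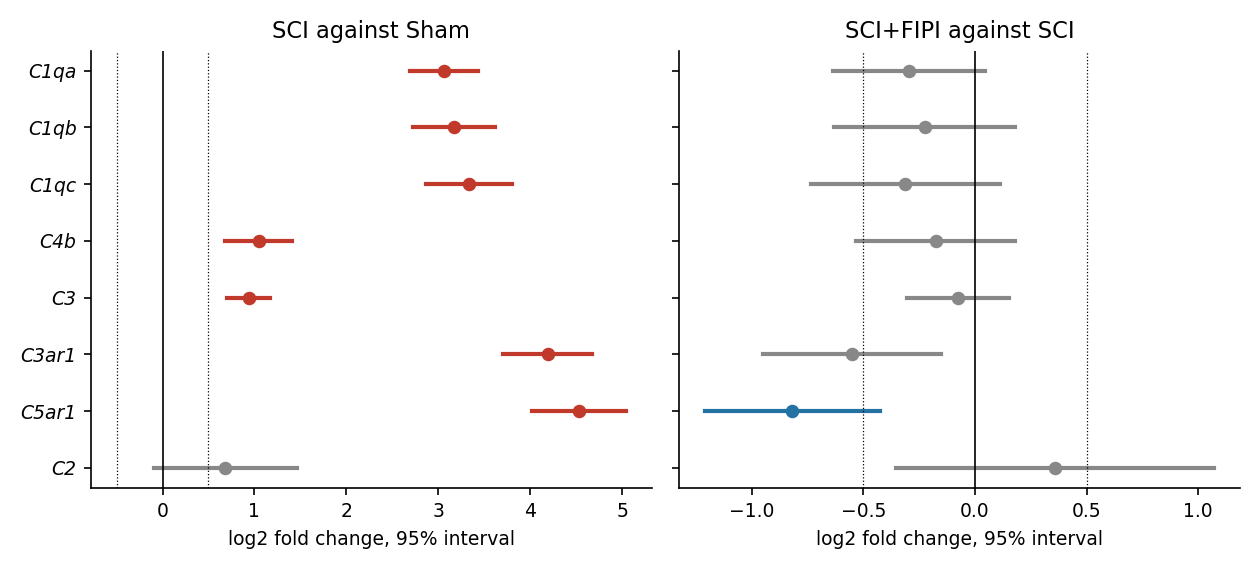
Log2 fold changes (points) with 95% intervals (lines) of the 8 members tested for SCI against Sham and SCI+FIPI against SCI. Red marks higher calls, blue lower calls and grey no call, with dotted lines at the limit of 0.5, and C5ar1 is the one blue point, at -0.82.

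Against Sham, all 8 members tested were higher in the SCI+FIPI group, a call made for 21.2% of all genes. This comparison and the one of SCI against Sham share the sham mice, and each shares injured mice with the comparison of both injured groups. C5ar1 remained 13.1-fold and C3ar1 12.4-fold above the sham mice. The log2 fold changes were 2.77 for C1qa, 2.94 for C1qb, 3.02 for C1qc, 0.87 for C4b and 0.86 for C3, with adjusted p-values of at most 0.00121. C2 was called as well (1.04, standard error 0.356, adjusted p = 0.0207), and its call was lost without sham mouse 1 (0.77, adjusted p = 0.0863), sham mouse 3 (1.01, adjusted p = 0.0566) or SCI+FIPI mouse 2 (0.84, adjusted p = 0.0964).

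Myeloid markers moved with these results. The 8 pan-myeloid markers (Ptprc, Csf1r, Aif1, Tyrobp, Fcer1g, Laptm5, Cd68 and Spi1) all rose after injury, from a summed 290 to 394 CPM in the sham mice to 2205 to 2620 CPM in the SCI mice. They summed to 1679 to 2019 CPM in the SCI+FIPI mice, where all 8 had lower values than in the SCI group and 1 was called. Microglia markers summed to 344 to 427, 1022 to 1185 and 879 to 951 CPM in Sham, SCI and SCI+FIPI, and monocyte and macrophage markers to 127 to 242, 7744 to 9468 and 5258 to 7843 CPM. In RNA of whole tissue, fewer cells of a type and less RNA per cell cannot be told apart.

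Each of the 7 members with at least 10 counts in every mouse was therefore also set against the mean log2 CPM of the 8 pan-myeloid markers of the same mouse. After injury C1qa, C1qb and C1qc were higher relative to these markers by 0.16, 0.28 and 0.45 on the log2 scale. C3ar1 was higher by 1.28 and C5ar1 by 1.61, whereas C4b differed by -1.84 and C3 by -1.97. Among these 7, the differences of the C1q subunits were thus the smallest, those of the receptors were positive, and those of C3 and C4b were negative. The 8 markers themselves varied widely, with log2 fold changes after injury from 1.55 for Csf1r to 4.55 for Cd68 and a median of 2.94. The values of 4.19 for C3ar1 and 4.53 for C5ar1 lay within that range. Some markers of other cells that can make C3 and C4 moved as well. The 8 astrocyte markers summed to 8844 to 9272 CPM in the sham mice and 12662 to 14526 CPM in the SCI mice, with 3 called higher and 1 lower. Gfap alone went from a mean of 4136 to 9620 CPM. Of the 8 values, 4 were higher and 4 lower after injury, with a median log2 fold change of 0.08. The 6 fibroblast markers, all called higher, summed to 350 to 939 and 8816 to 11862 CPM. With FIPI no marker of either list was called, and their part in the C3 and C4b values was not tested. In all 7 the SCI mice did not overlap the sham mice, which was so for 97.6% of the 16094 genes with at least 10 counts in every mouse (two-sided exact permutation test, p = 0.1, the smallest that 3 mice against 3 allow). The place of the C1q subunits depended on the markers, since they differed by 1.96 to 2.24 against microglia markers and by -0.76 to -0.47 against monocyte and macrophage markers. Against these lists C5ar1 differed by 3.41 and 0.69, C3ar1 by 3.07 and 0.36, C4b by -0.05 and -2.76 and C3 by -0.18 and -2.89.

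With FIPI, C5ar1 was the one member of the 7 that did not overlap between the injured groups on this scale. It was at -1.51, -1.09 and -1.31 in the SCI mice and at -1.64, -1.79 and -1.79 in the SCI+FIPI mice, a difference of -0.44 (exact permutation p = 0.1, the smallest possible). Of the 16094 genes, 0.398% did not overlap and were lower on this scale, and 64.5% did not overlap in either direction. All 8 markers had lower values with FIPI, so that the scale itself moves other genes upward and makes lower ones rare. The share of 0.398% therefore does not measure how unusual C5ar1 is. C3ar1 differed by -0.19 and overlapped (exact permutation p = 0.3). The differences of the other 5 were from 0.06 for C1qc to 0.28 for C3, all with overlap. The difference of C5ar1 was -0.67 against microglia markers and -0.48 against monocyte and macrophage markers. Set against the mean of the C1q subunits, a scale chosen after the values were seen, C5ar1 differed with FIPI by -0.53 without overlap and C3ar1 by -0.29 with overlap (exact permutation p = 0.1 and 0.3). Groups did not overlap in the lower direction for 0.789% of the 16094 genes on that scale. The C1q subunits also had lower values with FIPI, so that this share is shifted in the same way.

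**Figure D4:**
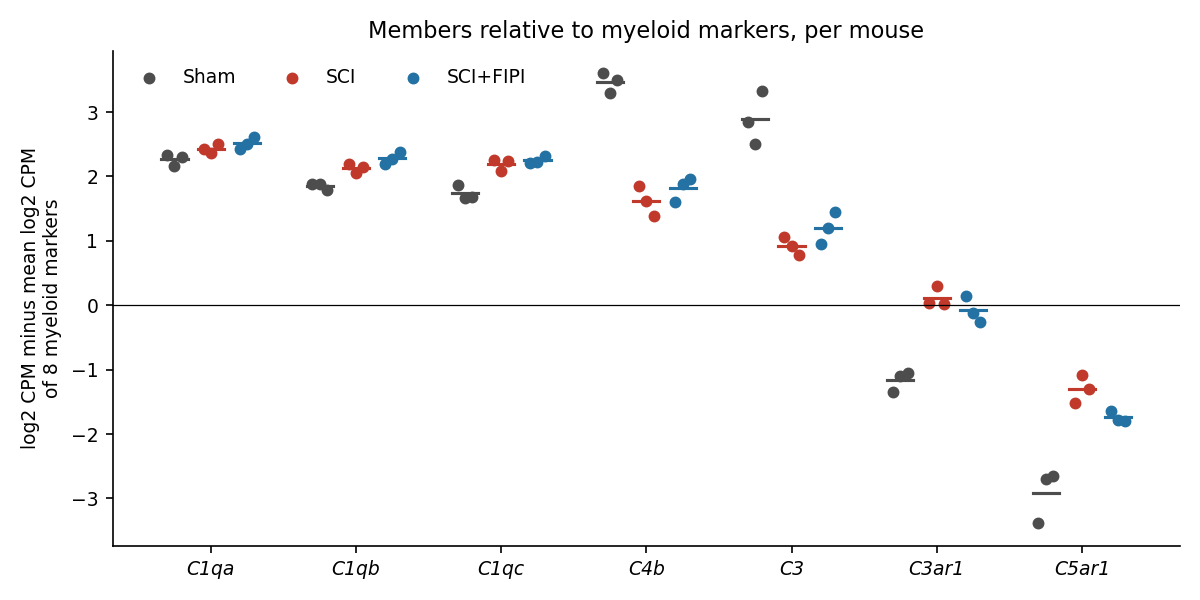
Log2 CPM of 7 members minus the mean log2 CPM of 8 pan-myeloid markers in each mouse (points) with group means (bars), n = 3 mice per group. C3 and C4b sit lower in the injured groups than in Sham, C3ar1 and C5ar1 sit higher, and C5ar1 is lower in SCI+FIPI than in SCI by 0.44.

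Of 51 other complement genes, 37 passed the filter. After injury 18 of them rose and 5 fell, with a median log2 fold change of 0.57. Of all genes tested, 24.4% were called higher and 22.5% lower, 47% in all. The initiating genes that rose were C1ra and C1s1, the proteases carried by C1q (1.86 and 1.94), and the lectin pathway genes Fcna, Colec10 and Colec11 (2.55, 2.15 and 0.99). C1ra shares 50.8% of its 50-base stretches with C1rb, and C1s1 shares 39% with C1s2, so that reads could be split between these copies.

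Properdin, the stabilizer of the alternative C3 convertase encoded by Cfp, rose to 63.1 ± 2.86 CPM, against 16.8 ± 0.688 CPM in the sham mice (SD, n = 3 mice per group). Among inhibitors in the fluid phase, the C1 inhibitor Serping1 (1.75) and vitronectin (Vtn, 0.62) rose, and Clu and Cfi did not pass. C6 and C7 of the membrane attack complex were called at low counts, C6 with 0, 6 and 4 in the sham mice and 32, 26 and 58 in the SCI mice, and C7 with 0, 3 and 1 against 8, 22 and 10. Hc, which encodes C5, the source of the C5aR1 ligand, did not pass (0.38, adjusted p = 0.494).

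Of 7 other receptors, 6 rose after injury. They were Itgb2 (3.01), Cd93 (2.92), Itgax (2.41), C5ar2 (2.38) and Itgam (2.15), with Vsig4 at 1, 1 and 0 counts in the sham mice against 42, 29 and 36 in the SCI mice. Itgam, Itgax and Itgb2 form the integrins CR3 and CR4, which bind C3 fragments, and C5ar2 is the second C5a receptor. Itgam shares 72.4% of its stretches with the joined model Gm49368, which had at most 3 counts in any mouse. The 5 genes called lower were membrane regulators, Csmd3 (-1.43), Susd4 (-1.22), Csmd1 (-1.06), Csmd2 (-0.73) and Cd46 (-0.62), the last with overlapping groups. Cr1l, the rodent inhibitor Crry, rose (0.57). The 8 neuron markers fell alongside, from 8370 to 9099 CPM in sum to 2725 to 3675 CPM, and their part in the lower values was not tested.

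With FIPI, 2 of the 37 were called higher and 1 lower, with a median of -0.10. Of all genes tested, 2.36% were called higher. Cd93, a receptor of phagocytes and endothelium, fell to 109 ± 13.6 CPM, against 159 ± 14.3 CPM without FIPI (SD, n = 3 mice per group, log2 fold change -0.54, adjusted p = 0.0177). The 5 endothelial markers also had lower values, with sums of 318 to 395 CPM against 408 to 438 CPM and none called, and neither their part nor that of the myeloid markers in the Cd93 value was tested. Csmd3 rose to 11.6 ± 2.13 CPM, against 7.88 ± 1.20 CPM (SD, n = 3 mice per group, log2 fold change 0.56, adjusted p = 0.0237), and neuron markers were at a summed 4258 to 4930 CPM in the SCI+FIPI mice. Fcnb, a ficolin of neutrophils and monocytes, was called higher on few counts (adjusted p = 0.0275), with 2, 1 and 2 in the SCI mice and 3, 38 and 19 in the SCI+FIPI mice. The 10 neutrophil markers summed to 23.9, 142 and 131 CPM in the same SCI+FIPI mice and to 56.2 to 69.9 CPM in the SCI mice, and their part in the Fcnb values was not tested.

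All 3 calls were lost without SCI mouse 3 or without SCI+FIPI mouse 2. Without SCI mouse 2 or SCI+FIPI mouse 3, Csmd3 alone was called, and without SCI+FIPI mouse 1 Csmd3 was lost. Without sham mouse 3 the count was 5, with Itgax and Itgb2 added as lower. The 7 receptors all had lower values in the SCI+FIPI group, from -0.69 to -0.05 with a median of -0.48, and Cd93 was the one called. The median of all genes tested was -0.0013. The 8 pan-myeloid markers were all lower as well, with a median of -0.36. C5ar2, the second C5a receptor, was at 5.35 ± 0.513 against 7.37 ± 1.32 CPM (SD, n = 3 mice per group, log2 fold change -0.46, adjusted p = 0.0952). Against Sham, the SCI+FIPI group had 16 of the 37 called higher and 4 called lower, where either call was made for 38.1% of all genes.

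**Figure D5:**
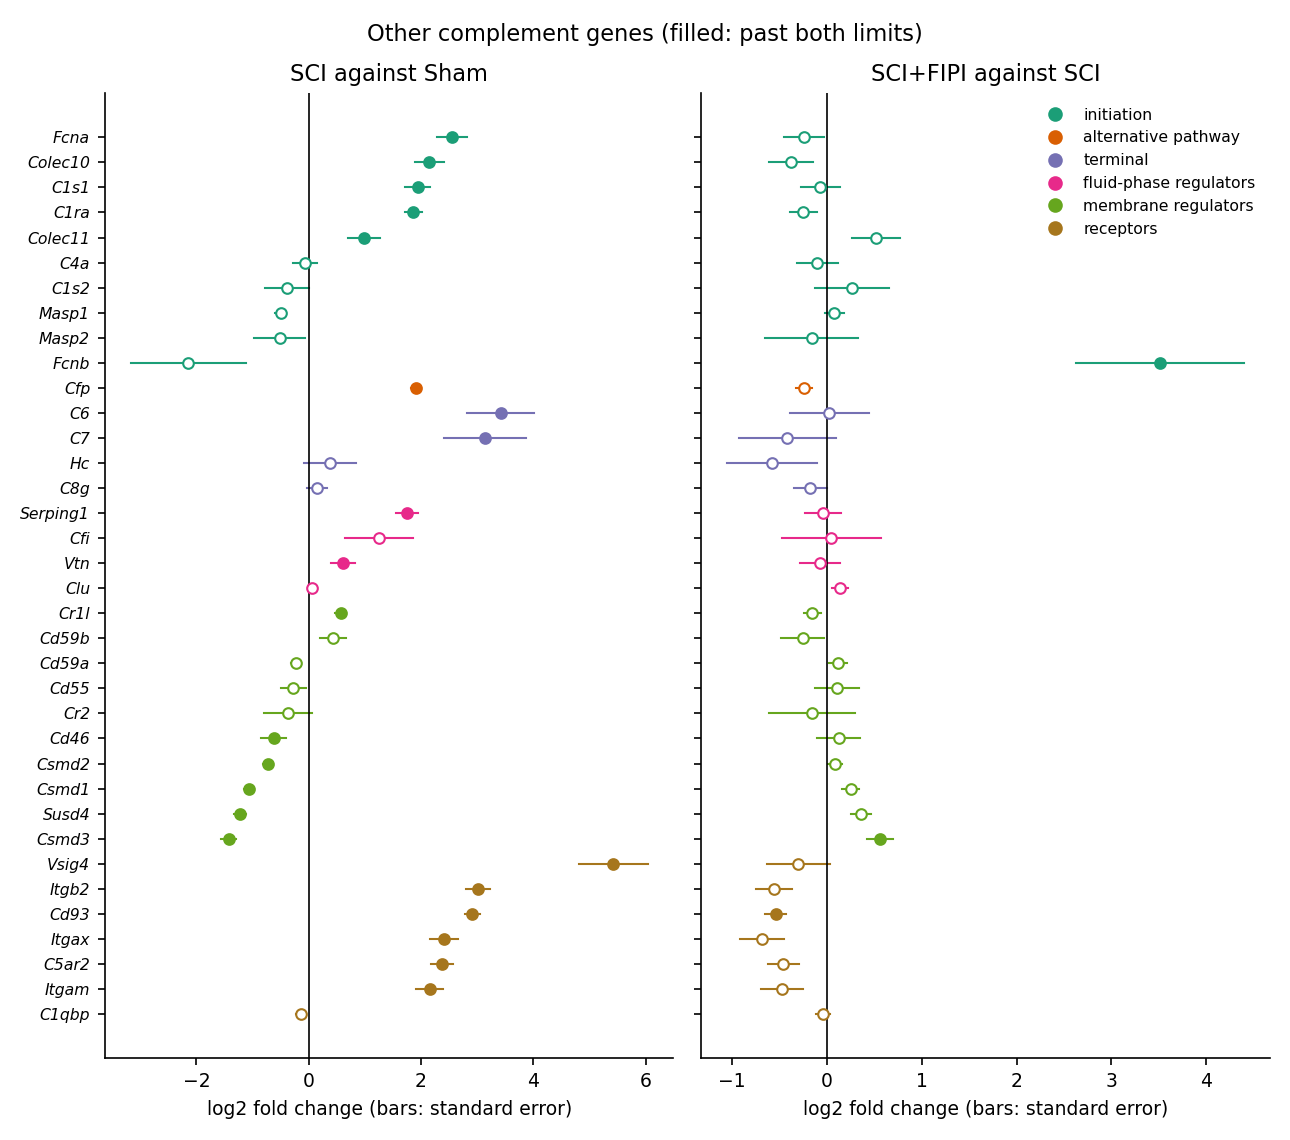
Log2 fold changes with standard errors of 36 other complement genes tested, colored by role, for SCI against Sham and SCI+FIPI against SCI (the axes differ in range). Filled points are called, 22 after injury and 3 with FIPI. Values of Vsig4, C7 and Fcnb rest on groups with at most 3 counts in each mouse.

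The genes most like a member were sought by the root-mean-square difference of centered log2 CPM over the 9 mice. For C1qa, whose log2 level spanned 3.65, they were Cebpa (0.083), Parvg (0.0995) and C1qb (0.0999). For C5ar1, they were Adam8 (0.153), Plin2 (0.158) and C3ar1 (0.199). The genes nearest to C3 were Ltbp3, Pak4 and Slc12a4 (0.0803 to 0.0914, span 1.27), and those nearest to C4b were Bmf, Ifih1 and Ppcdc (0.0931 to 0.116, span 1.56). No complement gene was among the 3 nearest to C3 or C4b.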

How the data were processed

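RNA of spinal cord from 9 mice was enriched for polyadenylated transcripts with a kit that marks the second strand. The authors trimmed reads and deposited raw counts per Ensembl gene, without normalization. GRCm38 is in the submitters' processing notes with R 4.2.3, and aligner, counter and strand setting are not given in the sources used here. All 9 count columns were used. Of 52550 identifiers, 52403 matched GENCODE M21, which gave symbols, lengths and positions.

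Counts were fitted with edgeR 4.0.16 in R 4.3.3 (TMM, filterByExpr, robust quasi-likelihood model with 1 mean per group, all 9 mice), which had 6 residual degrees of freedom and a biological coefficient of variation of 9.3%. Log2 CPM used a prior count of 2. Mice of one group differed beyond sampling noise (chi-square per gene 6.76 to 13.2). Labels name separate samples of each group, and they state no pairing by replicate number. Counting error only is covered by limits from a count of 0. DESeq2 1.42.0 was an alternative, as were other scaling factors and filters, GC and length offsets, the replicate block, fits to 2 groups and leaving out each mouse. On data simulated for SCI+FIPI against SCI over 18699 genes, 100 of 100 genes changed by log2 1 and 100 of 100 changed by log2 2 were recovered, with 3 false calls. Every simulated gene had the same coefficient of variation of 9.3%, and only well counted genes were changed. The simulation therefore does not show how often changes under log2 1, or changes in more variable genes, are found.

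Named genes were all 9 members, complement genes from a list of 51 that passed both limits or are described by their role's count, genes overlapping or sharing sequence with a member, and the 3 genes most like C1qa, C3, C4b and C5ar1. One gene of the list is counted but not reported here. The members, lists and motifs were chosen with earlier results of these data known. Shared sequence is the percent of 50-base stretches of a transcript found in another gene. Figures were drawn in Python 3.11.15 with matplotlib 3.10.9.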

Additional observations from a re-analysis of the deposited data

How the results depend on the processing

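No log2 fold change of a member changed direction under any alternative run. DESeq2 called 2 members with FIPI in place of 1, adding C3ar1, and leaving out 1 mouse gave 0 to 2 members and 0 to 5 of the other complement genes in that comparison. C5ar1 kept its call there in the 10 alternatives that used all mice (-0.84 to -0.80, adjusted p at most 0.0496). C2 against Sham in the SCI+FIPI group lost its call with GC and length offsets (0.77, adjusted p = 0.0724) and with these and the replicate block (0.79, adjusted p = 0.064). The offsets moved the median of all genes to -0.10 for SCI against Sham and -0.12 for SCI+FIPI against Sham, and the calls over all genes from 4571 higher and 4209 lower to 3966 and 4897, and from 3957 and 3171 to 3221 and 4115. For both injured groups, the split of 442 higher and 130 lower became 385 and 175 with the offsets. Csmd3 lost its call with FIPI under the offsets (0.497, adjusted p = 0.0294) and in the fit to the 2 groups compared (0.56, adjusted p = 0.0511), Fcnb was not tested in that fit or with at least 10 counts in every mouse, and DESeq2 gave it no adjusted p. The fit to 2 groups added Itgax (-0.69, adjusted p = 0.00926) and Itgb2 (-0.55, adjusted p = 0.0309) as lower, and DESeq2 added Itgb2 (-0.56, adjusted p = 0.0484).

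The replicate block left the counts of members at 7, 1 and 8 for SCI against Sham, SCI+FIPI against SCI and SCI+FIPI against Sham, and C5ar1 at -0.80 (adjusted p = 0.0496), and it added Itgax (-0.70, adjusted p = 0.0325) as lower with FIPI. Correlations of same-numbered mice were -0.073 to 0.108, and those of differently numbered mice were -0.108 to 0.089. With 3 mice per group, such values cannot show whether the numbers carry a pairing.

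The median over 7 members relative to markers depended on the marker list. After injury it was 0.28 with pan-myeloid, 2.08 with microglia and -0.64 with monocyte and macrophage markers. In the SCI+FIPI group against Sham it was 0.43, 1.99 and -0.53, and against SCI it was 0.08 with pan-myeloid and -0.16 with microglia markers. The value against SCI with monocyte and macrophage markers is not given here. The cause was not tested. C2 and Cfb rested on few counts, and each group held 3 mice.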
